A study of Mus musculus with 19 samples.

Results

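Fragments of nuclear serine tRNAs were followed through all 19 small RNA libraries of mouse sperm. The members were 4 loci of the RefSeq annotation (GRCm38), n-TSaga9, n-TStga1, n-TStga2 and n-TSgct5, out of 32 tRNA loci in the reference, which held 10 nuclear and 22 mitochondrial tRNAs. A read was assigned to them if it matched the sense strand of the tRNA, with the CCA tail added, with at most 1 mismatch. The annotation lists 22 nuclear serine loci (7 AGA, 3 TGA, 3 CGA, 8 GCT and 1 GGA by anticodon), and the other 18 were not used here, so a read shared with one of them was counted for these 4.

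Sperm came from the cauda epididymis of wild-type (WT) males that had received either dicyclohexyl phthalate (DCHP), a phthalate plasticizer, or vehicle by oral gavage for 4 weeks from an age of 8 weeks. All males were WT, so no allele or transgene separated the groups. RNA was sequenced by traditional RNA-seq (5 control and 5 DCHP-exposed samples) and by PANDORA-seq (4 control and 5 DCHP-exposed), in which the enzymes AlkB and T4PNK remove some RNA methyl groups and repair fragment ends before adapters are joined. The question was which sperm small RNAs each method shows and whether they differ after exposure of the sire.

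Serine tRNAs carry serine to the ribosome and are the long type of nuclear tRNA, with an extended variable arm between the anticodon stem and the T stem. Mature tRNAs are cut into tRNA-derived small RNAs (tsRNAs), which are named 5′, internal or 3′ by the part of the tRNA they come from and are a major class of small RNA in mature sperm. Methylated bases and unusual fragment ends can stop library preparation, which is why enzymes that act on them can alter which tsRNAs are read.

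The 4 loci were each 82 bases long, or 85 with CCA, and the anticodon lay at bases 34 to 36 counted from the 5′ end. n-TSgct5, whose 5′, internal and 3′ reads are all described by position below, is printed 5′ to 3′ with the anticodon in capitals.
n-TSgct5: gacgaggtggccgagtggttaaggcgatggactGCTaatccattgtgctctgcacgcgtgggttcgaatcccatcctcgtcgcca

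n-TSaga9 lies at chr4:10874064-10874145 on the plus strand, n-TStga1 at chr13:23518146-23518227 on the plus strand, n-TStga2 at chr13:21924935-21925016 on the minus strand and n-TSgct5 at chr13:22050686-22050767 on the minus strand. GENCODE annotates the first 3 as genes of the miRNA type, and n-TSgct5 lies on the strand opposite to the unclassified gene Gm48356. n-TStga1 and n-TStga2 were identical. n-TSaga9 matched them at 83 of 85 bases, with the substitutions A34T and C50T (n-TSaga9 base first), whereas n-TSgct5 matched n-TSaga9 at 65 of 85 bases.

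The 5′ ends of the AGA and TGA loci therefore cannot be told apart, and their shared reads are called Ser-AGA/TGA here. The reads of n-TSgct5 are called Ser-GCT. A 5′ read started at base 1, a 3′ read ended at or after the last genomic base (base 82), and all other reads were internal. The deposited reads were 15 to 45 nt long.

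The reads that carry the pattern are printed next, each with its first and last base. Capitals mark base 67, an adenosine of the T loop that is 18 bases before the end of the tail, and any mismatch. The reads at bases 1 to 15 and 1 to 19 of Ser-AGA/TGA and at bases 68 to 83 of Ser-GCT were added after their values were seen, as the main short forms. Among Ser-GCT 3′ reads starting past base 67, the last of these had the highest mean in the traditional libraries.
Ser-AGA/TGA, bases 1 to 15: gtagtcgtggccgag
Ser-AGA/TGA, bases 1 to 19: gtagtcgtggccgagtggt
Ser-AGA/TGA, bases 1 to 23: gtagtcgtggccgagtggttaag
Ser-GCT, bases 1 to 23: gacgaggtggccgagtggttaag
Ser-GCT, bases 42 to 83: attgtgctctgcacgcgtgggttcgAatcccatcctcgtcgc
Ser-GCT, bases 59 to 83: tgggttcgAatcccatcctcgtcgc
Ser-GCT, bases 68 to 83: atcccatcctcgtcgc

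In all, 680906 reads of 5491 distinct sequences matched the 4 loci, and 17.7% of them had 1 mismatch. Summed over all libraries, of which the traditional ones held most of the serine reads, there were 407289 Ser-AGA/TGA 5′ reads, 179186 Ser-GCT 5′ reads and 60356 Ser-GCT 3′ reads without the full CCA. In PANDORA-seq the last 2 stood in the other order, with mean shares of serine reads of 33.7% (control) and 39.6% (DCHP) for the Ser-GCT 3′ form and 5.96% and 5.82% for the Ser-GCT 5′ form. Each library had between 2635 and 53178 reads whose match to n-TSaga9 was as good as to any other locus, but only 4 to 293 of them matched it alone. n-TSgct5 had 2579 to 31975 reads per library, nearly all of which matched no other locus of the reference. RefSeq lists 8 GCT serine loci, and those outside the reference were not searched. No read matched only one of n-TStga1 and n-TStga2, so those loci have no values of their own.

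Libraries held 21588335 to 56506344 deposited reads, of which 5279 to 20352 (PANDORA-seq) and 32416 to 78527 (traditional RNA-seq) were serine tRNA reads. The labels do not say that samples of a group came from separate males, though the study calls its PANDORA-seq samples biological replicates. The p-values measure the spread between these samples within each group. Between the methods the main tests treated the libraries as independent, although those with the same replicate number deviated together. The paired form is given below. Among miRNA hairpins used as cell markers, the sum of Mir34b, Mir34c and Mir449a (sperm and spermatids) was 0.902 to 1.06 RPM (reads per 1000000 deposited reads) in PANDORA-seq control, 1.099 to 6.46 in PANDORA-seq DCHP, 87.1 to 200.4 in traditional control and 140.0 to 462 in traditional DCHP. The 5 epithelial hairpins (Mir200a, Mir200b, Mir200c, Mir141 and Mir429) summed to 2.63 to 8.17, 3.95 to 42.8, 553 to 1504 and 815 to 4430 RPM in the same order. The 2 smooth muscle hairpins (Mir143 and Mir145a) summed to 2.60 to 14.3, 4.86 to 112, 1366 to 6129 and 1626 to 6928 RPM, and the 3 blood hairpins (Mir451a, Mir144 and Mir486) to 0 to 0.265, 0.0211 to 0.113, 3.23 to 90.9 and 2.93 to 14.3 RPM. No marker was at 0 in every library of a group. The summed hairpins of every list lay higher in traditional RNA-seq than in PANDORA-seq, and their part in the results was not tested. Fewer cells of a type and less RNA per cell cannot be told apart in these bulk samples.

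Whether serine tRNA reads were lower or higher in PANDORA-seq than in traditional RNA-seq depended on what they were divided by. Relative to all deposited reads, PANDORA-seq control samples had 354.7, 199.6, 243.3 and 310.9 RPM of serine tRNA reads, and PANDORA-seq DCHP samples 276.6, 342.9, 193.5, 270.6 and 461.4. Traditional control samples had 1530, 1330, 1364, 1220 and 1340, and traditional DCHP samples 1551, 1726, 1812, 1680 and 2427. Every traditional sample was above every PANDORA-seq sample on this scale.

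Divided by all reads on miRNA hairpins, the methods had close means (21.4 ± 3.44 (SD, n = 4) and 21.3 ± 8.87 (SD, n = 5) per 1000 in control samples, 26.6 ± 9.24 and 26.9 ± 5.17 (SD, n = 5 each) in DCHP samples). Divided by hairpin reads of miRNA length (20 to 24 nt), the order turned over, with means of 806 and 689 serine tRNA reads per 1000 in PANDORA-seq control and DCHP samples against 24.7 and 30.9 in traditional samples. PANDORA-seq libraries had medians of 485973 hairpin reads and 13996 of miRNA length, against 2388070 and 2080170 in traditional libraries. Most hairpin reads of PANDORA-seq were thus not of miRNA length, so hairpin reads are not a like denominator in the methods. Which method had more serine reads in all therefore depended on the denominator. A share is instead taken among the reads of the same tRNA and uses none of these denominators.

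**Figure D1:**
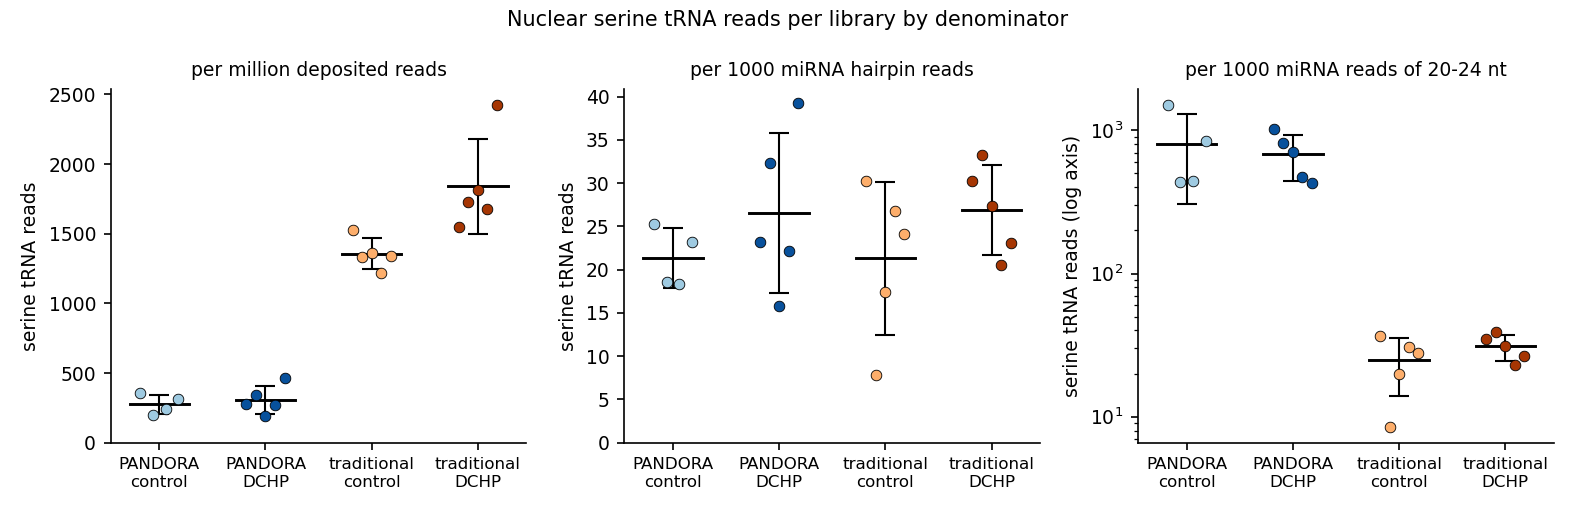
Serine tRNA reads per library (points, in 4 groups) divided by total reads, by miRNA hairpin reads and by hairpin reads of 20 to 24 nt, the last on a log axis; lines and bars are the group mean and SD. The order of the methods changes between panels, from 193.5 to 461.4 against 1220 to 2427 RPM to means of 806 and 689 against 24.7 and 30.9 per 1000 reads of 20 to 24 nt.

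Reads of the anticodon families came from different parts of the tRNA. Ser-AGA/TGA reads were nearly all 5′ reads in every library of both methods, with shares from 94.4% to 98.9%. Ser-GCT reads came mainly from the 3′ part in PANDORA-seq and mainly from the 5′ end in traditional RNA-seq. Along Ser-GCT, base 10 had 16.8% of the coverage of the most covered base in PANDORA-seq control samples and 100% in traditional control samples, and base 75 had 96.4% and 20.3%. Along Ser-AGA/TGA, coverage at base 30 was at most 0.0280% of the highest in each of the 4 groups, so that hardly any read crossed from the D arm into the anticodon stem.

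**Figure D2:**
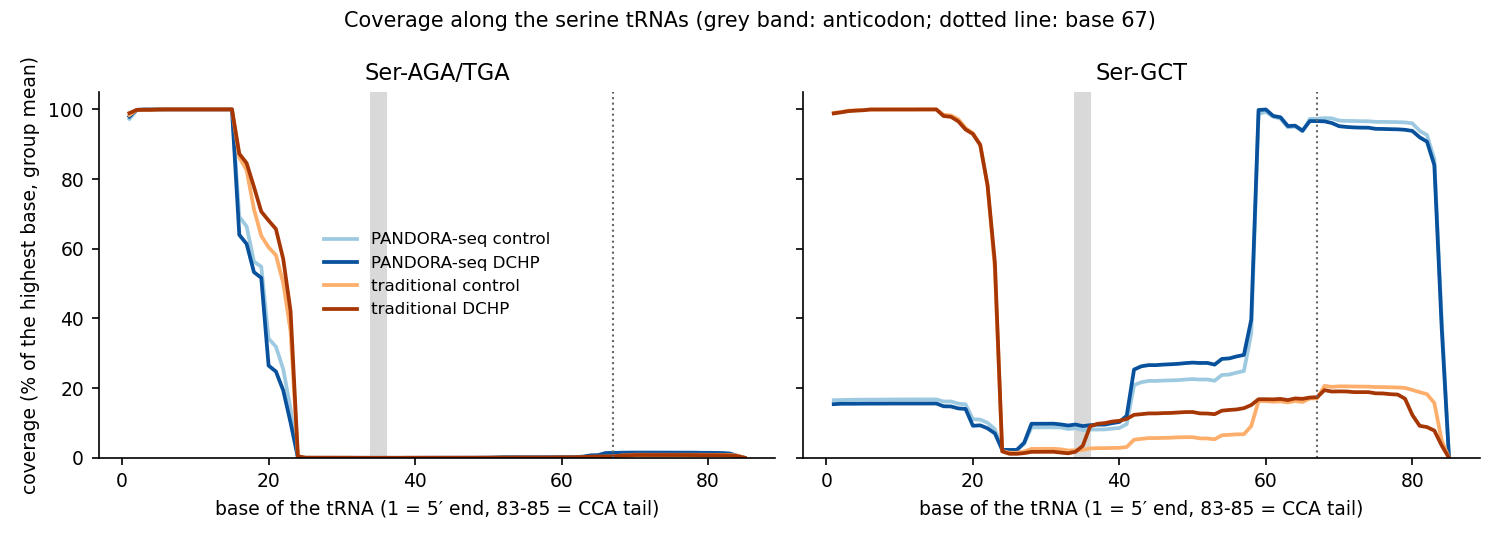
Mean coverage of each base (% of the most covered base of the library, averaged over the libraries of a group) along Ser-AGA/TGA and Ser-GCT. The Ser-AGA/TGA lines drop to at most 0.0280% by base 30 in each group, while the Ser-GCT lines of the methods cross, with base 75 at 96.4% in PANDORA-seq control and 20.3% in traditional control samples.

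The 5′ share of Ser-GCT reads was 12.9%, 19.1%, 9.14% and 11.8% in PANDORA-seq control samples and 72.4%, 89.9%, 64.5%, 82.8% and 95.7% in traditional control samples. The groups did not overlap, and their means differed by 67.8 percentage points (13.2 ± 4.23 against 81.1 ± 12.7, SD, two-sided exact permutation test, adjusted p = 0.0274). Shares, lengths and mismatches were called at an adjusted p under 0.05. After DCHP the shares were 13.9%, 8.54%, 21.5%, 8.75% and 8.51% in PANDORA-seq and 86.2%, 57.7%, 84.5%, 94.4% and 93.9% in traditional RNA-seq. The difference was 71.1 percentage points (12.2 ± 5.65 against 83.3 ± 15.0, SD, exact permutation test, adjusted p = 0.0155).

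The 3′ share of Ser-GCT, bound to the 5′ share because shares sum to the whole, moved the other way. It was 78.2%, 66.7%, 84.6% and 72.1% in PANDORA-seq control samples against 20.2%, 6.22%, 26.5%, 11.7% and 1.93% in traditional control samples (adjusted p = 0.0274, exact permutation test). After DCHP it was 72.9%, 72.5%, 67.03%, 78.8% and 82.8% against 8.99%, 10.3%, 9.87%, 2.16% and 2.19% (adjusted p = 0.0155, exact permutation test). Here too no PANDORA-seq sample reached the range of the traditional samples. Both control calls were lost when PANDORA-seq control replicate 2 or 4 or any traditional control library was left out (adjusted p from 0.0503 to 0.0620, exact permutation test). The differences stayed between −72.0 and −64.2 percentage points for the 5′ share and between 59.2 and 65.4 for the 3′ share.

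Across the 12 tRNA sets with enough reads, 40.8% of all measures of origin, length and mismatch differed between the methods in control samples and 64.5% in DCHP samples. Of the 16 serine measures 4 and 9 did so, which is below those shares. The 3′ share of Ser-GCT rose by 62.1 percentage points in control and 68.1 in DCHP samples, the largest rise of the 12 sets but close to the next, at 58.7 and 67.3. Its 5′ share fell second most in control samples and most in DCHP samples, and the ranks were not tested. With libraries paired by replicate number the exact test cannot go below p = 0.125 with 4 pairs or 0.0625 with 5 pairs, so no share or mismatch was called in the paired form (0 in each).

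**Figure D3:**
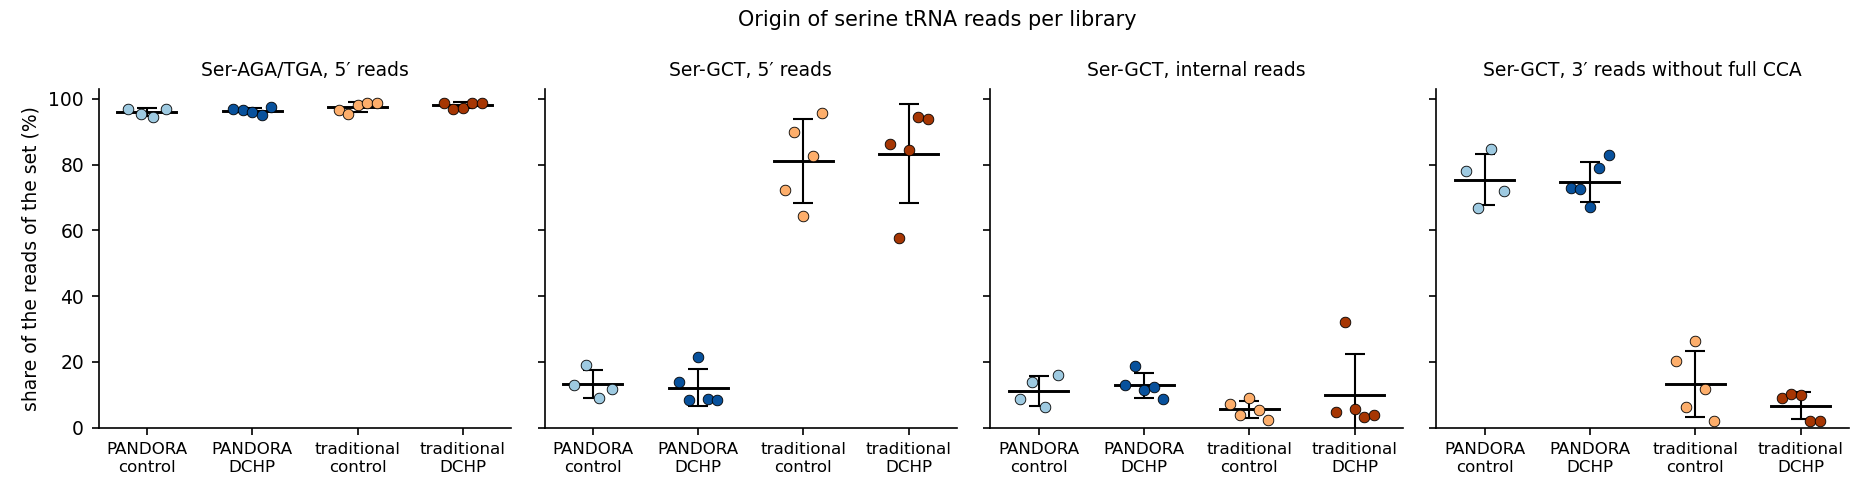
Share of reads by origin per library (points, with mean and SD by group) for Ser-AGA/TGA 5′ reads and for Ser-GCT 5′, internal and 3′ reads. Ser-GCT 5′ shares of 8.51% to 21.5% in PANDORA-seq lie apart from 57.7% to 95.7% in traditional RNA-seq, and the 3′ shares mirror them, while Ser-AGA/TGA stays between 94.4% and 98.9%.

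Ser-AGA/TGA 5′ reads were the most abundant serine tsRNAs in every traditional library and every PANDORA-seq control library. In PANDORA-seq DCHP replicates 2, 4 and 5 they came after Ser-GCT 3′ reads without the full CCA, and the median shares of that group were 39.5% and 42.6%. The Ser-AGA/TGA 5′ reads measured 203, 96.8, 120.0 and 175 RPM in PANDORA-seq control samples and 1205, 748, 703, 722 and 774 RPM in traditional control samples. After DCHP they measured 172, 136, 116, 86.5 and 161 RPM in PANDORA-seq and 963, 986, 1185, 1037 and 1617 RPM in traditional RNA-seq. Every PANDORA-seq sample was below every traditional one. Calls came from edgeR's quasi-likelihood test over all small RNA features (tRNA fragments, miRNA hairpins, rRNAs and other small RNA genes), at a Benjamini-Hochberg adjusted p under 0.1 and a fold over 2. In it they were 5.59-fold lower in PANDORA-seq control samples (log2 −2.48, SE 0.40, adjusted p = 7.77e-05) and 8.62-fold lower after DCHP (log2 −3.11, SE 0.34, adjusted p = 1.04e-06) per total reads, but higher by 4.82 and 4.13 on the log2 scale per hairpin read of 20 to 24 nt.

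The length of these 5′ reads also differed. PANDORA-seq showed a main peak at 15 nt, the shortest deposited length, with 31.6% of reads in control and 36.8% in DCHP samples, and a second at 19 nt with 20.7% and 25.2%. Traditional RNA-seq had its peak at 23 nt, with 36.4% and 42.0%, where PANDORA-seq had 14.4% and 10.2%. Traditional control replicate 1 went against this, with 25.2% of its reads at 21 to 23 nt and 25.6% at 15 nt, where the other traditional libraries had 49.3% to 79.4% at 21 to 23 nt and the PANDORA-seq libraries 18.4% to 40.1%. The mean length was 18.5 ± 0.482 nt against 20.1 ± 1.19 nt in control samples, which did not pass (adjusted p = 0.0905, exact permutation test), and 18.1 ± 0.227 nt against 20.6 ± 0.777 nt after DCHP (adjusted p = 0.0155, exact permutation test). Reads of 28 to 45 nt, which would reach the anticodon arm, were at most 0.0332% of Ser-AGA/TGA 5′ reads on average in any group. Exact reads over base 34 fall outside this set, but no 5′ read matched n-TSaga9 alone or the TGA loci alone.

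Of the 3 single sequences, the longest was lower in PANDORA-seq per total reads, without overlap. That read of bases 1 to 23 lay at 14.7 to 20.95 RPM in PANDORA-seq control and 9.64 to 15.3 RPM in PANDORA-seq DCHP samples, against 151 to 311 and 272 to 668 RPM in the traditional groups. That of bases 1 to 19 lay at 16.6 to 57.2, 15.2 to 60.01, 7.94 to 48.1 and 10.1 to 36.6 RPM in the same order, so its ranges overlapped between the methods. The shortest, bases 1 to 15, lay at 25.6 to 70.4, 27.8 to 70.8, 52.6 to 269.5 and 74.0 to 213 RPM. Per total reads its ranges overlapped in control samples and lay lower in PANDORA-seq after DCHP. The single sequences were not compared per hairpin read, the scaling under which 5′ reads as a whole turned to higher by 4.82 and 4.13 on the log2 scale for hairpin reads of 20 to 24 nt.

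**Figure D4:**
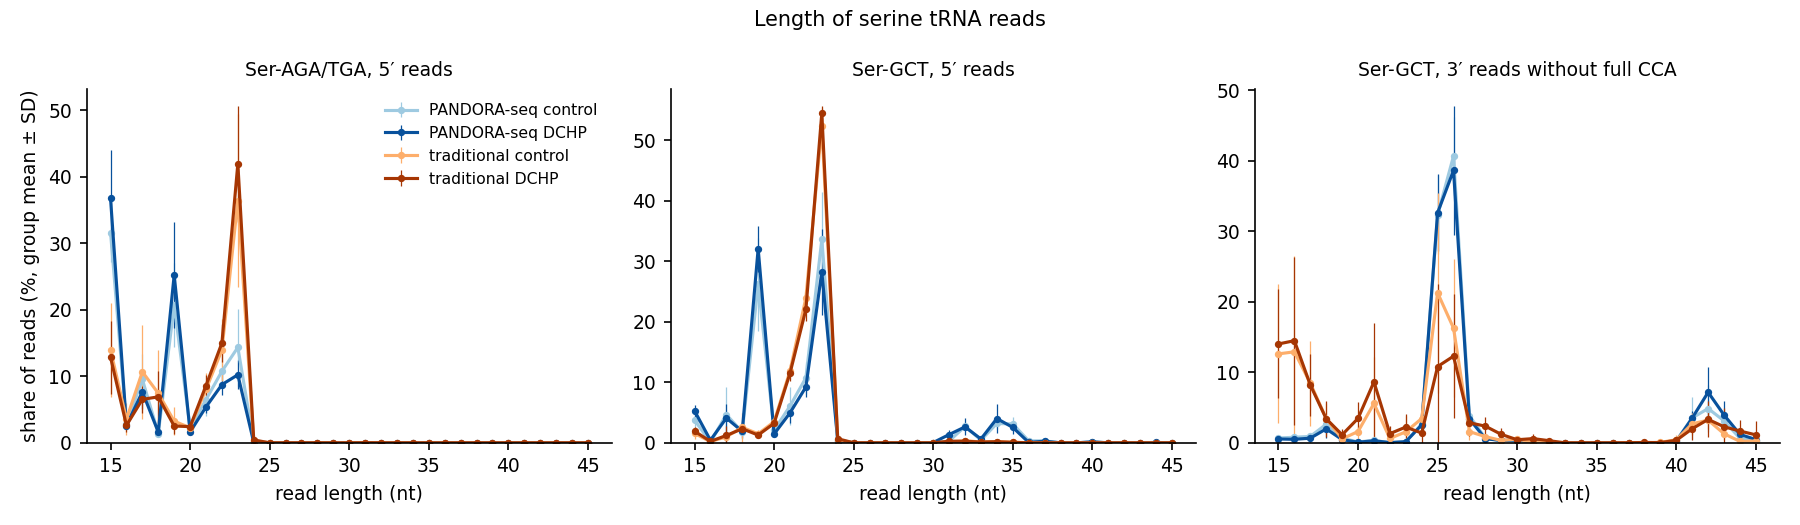
Share of reads at each length (nt, group mean and SD, 4 groups) for Ser-AGA/TGA 5′, Ser-GCT 5′ and Ser-GCT 3′ reads. Ser-AGA/TGA 5′ reads peak at 15 and 19 nt in PANDORA-seq and at 23 nt in traditional RNA-seq, and Ser-GCT 3′ reads peak at 25 and 26 nt in PANDORA-seq.

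Ser-GCT 5′ reads were the fragments that separated the methods most per total reads. They measured 18.6, 18.6, 10.6 and 15.3 RPM in PANDORA-seq control samples and 201, 485, 412, 401 and 529 RPM in traditional control samples. After DCHP they measured 13.5, 17.2, 15.4, 15.6 and 25.1 RPM in PANDORA-seq and 490, 396, 496, 591 and 733 RPM in traditional RNA-seq. No PANDORA-seq sample came near the traditional range. They were 25.7-fold lower in PANDORA-seq control samples (log2 −4.69, SE 0.46, edgeR adjusted p = 9.34e-07) and 31.1-fold lower after DCHP (log2 −4.96, SE 0.37, edgeR adjusted p = 3.57e-08) per total reads, and higher by 2.68 and 2.15 on the log2 scale per hairpin read of 20 to 24 nt.

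For Ser-GCT, the read of bases 1 to 23 had 2.08 to 6.62 RPM over both PANDORA-seq groups and 66.3 to 297 RPM over both traditional groups. The 23 nt length held 52.4% and 54.6% of Ser-GCT 5′ reads in traditional control and DCHP samples. In PANDORA-seq it held 33.6% and 28.3%, and 19 nt held 26.2% and 32.1%. The mean length did not separate the methods (22.1 nt in both for control samples, exact permutation test, adjusted p = 0.986).

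Longer 5′ forms were found for Ser-GCT but hardly for Ser-AGA/TGA. An exact read over base 34 would count for n-TSaga9 alone or the TGA loci alone, and neither had any 5′ read. Reads of 30 to 36 nt, which end near or in the anticodon loop, had median shares of 10.8% and 9.83% of Ser-GCT 5′ reads in PANDORA-seq control and DCHP samples and of 0.718% and 0.631% in traditional RNA-seq. The highest traditional library, DCHP replicate 2, had 2.51%, and the lowest PANDORA-seq library had 6.04%. As levels they were lower in PANDORA-seq, with medians of 1.55 and 1.501 RPM against 2.88 and 3.13 RPM per total reads, and the ranges of the methods overlapped. These length classes were chosen after the length profiles were seen and were not tested.

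Ser-GCT 3′ reads were the only serine tsRNAs whose level per total reads was not lower in PANDORA-seq among those tested in control samples. They measured 113, 64.9, 97.9 and 93.9 RPM in PANDORA-seq control samples and 56.3, 33.5, 169, 56.8 and 10.7 RPM in traditional control samples, and these ranges overlapped. After DCHP they measured 71.2, 146, 48.1, 141 and 244 RPM in PANDORA-seq and 51.1, 70.8, 57.9, 13.5 and 17.1 RPM in traditional RNA-seq. In edgeR the difference was not called in control samples (log2 0.50, SE 0.59, adjusted p = 0.467) and was 3.09-fold higher in PANDORA-seq after DCHP (log2 1.63, SE 0.54, adjusted p = 0.0126). Without traditional control replicate 3 the control difference was 1.23 on the log2 scale and was called (edgeR adjusted p = 0.0449). With all libraries it was also called with TMM factors (log2 1.52, edgeR adjusted p = 0.0227), with DESeq2 (log2 1.45, adjusted p = 0.0166), per hairpin read (log2 2.86) and per hairpin read of 20 to 24 nt (log2 7.86).

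Of all serine fragments, 9 of the 14 with reads could be tested between the methods in control samples and 10 in DCHP samples. PANDORA-seq was lower for 8 and higher for 0 of the 9 in control samples, where 69.4% of all 965 features were called (54.7% lower and 14.7% higher). It was lower for 8 and higher for 1 of the 10 after DCHP, where 74.5% of 1041 features were called (62.9% lower and 11.6% higher). In control samples some internal reads passed the filter (at least 10 reads in at least 4 libraries) only through traditional libraries. They were those of n-TSaga9 alone, of the TGA loci alone and those shared by all loci. PANDORA-seq control libraries held at most 7, 8 and 8 of them, so the filter favoured lower calls there. With TMM factors, and likewise with DESeq2, the serine calls were 6 lower and 1 higher in control samples and 5 lower and 1 higher after DCHP. Among those lost with TMM factors were Ser-AGA/TGA internal reads (log2 −0.88 in control and −0.85 in DCHP samples) and, after DCHP, Ser-AGA/TGA 3′ reads (log2 −0.89). Per hairpin read they were 2 lower and 2 higher, and 3 lower and 2 higher. Per hairpin read of 20 to 24 nt all 9 and all 10 were higher. The serine median was −2.48 and −2.55 on the log2 scale beside −1.48 and −1.97 over all features tested. Those medians shift with the scaling, to −0.51 and −0.64 over all features with TMM factors, where 272 features were called higher and 416 lower in control samples and 275 and 480 after DCHP. Per hairpin read the calls were 467 higher and 299 lower in control and 450 and 366 in DCHP samples, and per hairpin read of 20 to 24 nt 786 and 16, and 819 and 3.

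The ends of the 3′ reads were almost never complete. Of the Ser-GCT 3′ reads, 0.0486% ended in the final A of CCA in PANDORA-seq (19 of 39089 reads) and 0.150% in traditional RNA-seq (32 of 21318), while 92.4% and 87.1% ended in either C of the tail. Ser-AGA/TGA gave 0 of 597 such reads in PANDORA-seq, which allows a share of up to 0.503%, and 1.11% in traditional RNA-seq (32 of 2877). In the other nuclear tRNAs the highest observed share of the final A was 0.102% with PANDORA-seq and 0.111% with traditional RNA-seq, where some had so few reads that 0 allows up to 0.984% and 0.611%, and among mitochondrial tRNAs it reached 4.70% and 3.56%. These shares cover counting error only, since reads without molecular identifiers are not independent molecules.

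The first base of the 3′ reads separated the methods at the T loop. In PANDORA-seq, 66.7% and 65.3% of Ser-GCT 3′ reads started at base 59, just inside the T stem, in control and DCHP samples. In traditional RNA-seq these were 31.4% and 17.7%, and 22.7% and 22.5% started at base 68, the base after the T-loop adenosine, against 0.371% and 0.171% in PANDORA-seq. The traditional libraries spread widely, with starts at base 68 from 1.61% to 54.6% in control and from 1.82% to 54.9% in DCHP samples, all above the highest PANDORA-seq library at 0.641%. Without traditional control replicate 2 the mean at base 68 was 14.7%, without DCHP replicate 3 it was 14.3%, and without DCHP replicate 1 the mean at base 59 was 10.6%. This adenosine often carries a methyl group on its N1 position in tRNAs, a mark that blocks reverse transcription and that AlkB removes. Whether these molecules carried the mark, and whether it bears on where their reads start, was not tested.

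The share of Ser-GCT 3′ reads that covered base 67 was 98.2%, 98.1%, 98.2% and 98.8% in PANDORA-seq control samples and 39.4%, 32.7%, 95.1%, 92.7% and 77.9% in traditional control samples. After DCHP it was 99.1%, 98.9%, 98.0%, 99.1% and 99.5% against 93.9%, 70.6%, 32.2%, 72.2% and 54.97%. Each PANDORA-seq sample was above each traditional sample, but the traditional samples spread widely and some came within 5 percentage points. This measure was chosen after the start positions were seen and was given no test. In 3 of the 4 tRNA sets that could be compared (75%), PANDORA-seq lay above traditional RNA-seq without overlap, so it was not particular to serine. The glycine tRNA n-TGccc7 (means of 99.1% against 94.5% in control samples) and the proline tRNA n-TPtgg2 (94.3% against 29.5%) did so as well, and mt-Th did not.

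**Figure D5:**
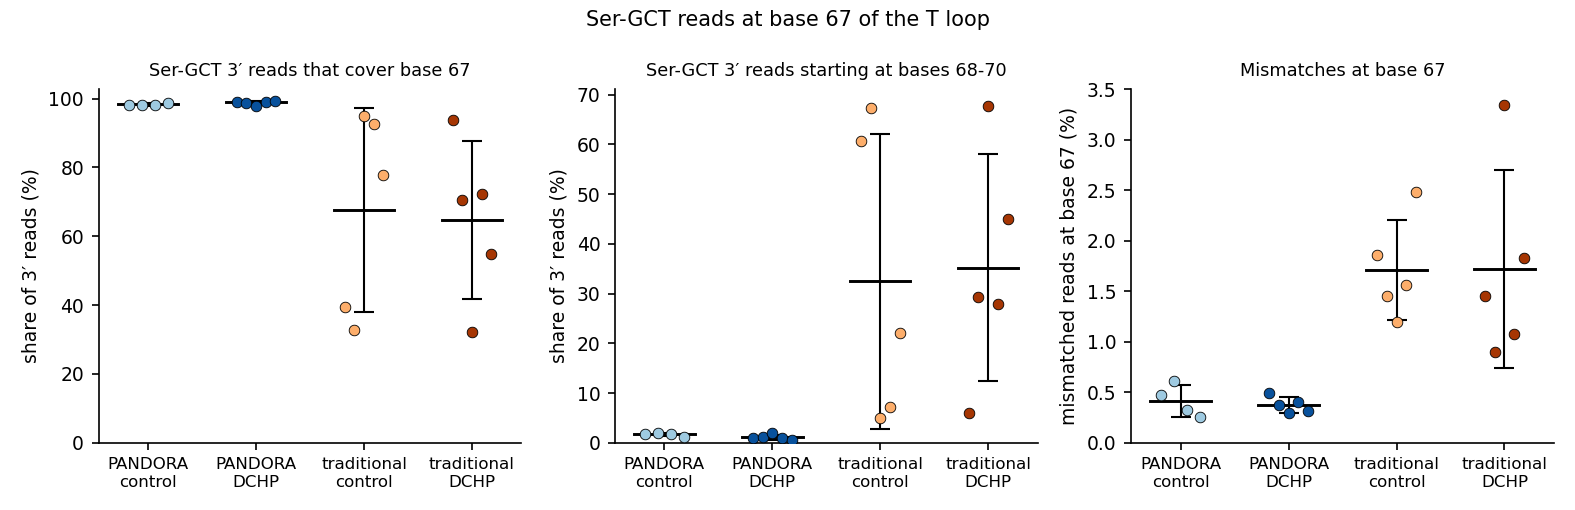
Ser-GCT reads at base 67 per library (points, with mean and SD by group), as the share of 3′ reads that cover it, the share that start at bases 68 to 70 and the share of reads over it with a mismatch. PANDORA-seq samples lie at 98.0% to 99.5% coverage with little spread and traditional samples at 32.2% to 95.1%.

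Of the printed sequences that end at base 83, those of bases 59 to 83 and 68 to 83 did not overlap between the methods after DCHP. Some printed reads from the other end of the tRNA did not overlap either, as given above. The read of bases 59 to 83, which holds the adenosine, lay at 20.9 to 35.3 RPM in PANDORA-seq control, 17.9 to 62.2 in PANDORA-seq DCHP, 0.620 to 50.8 in traditional control and 0.587 to 12.1 RPM in traditional DCHP samples. The read of bases 68 to 83, which starts after it, lay at 0.0231 to 0.157, 0 to 0.0899, 0.0827 to 10.98 and 0.269 to 14.9 RPM in the same order. It was chosen by its level in the traditional libraries, so higher values there were favoured by the choice. The PANDORA-seq values of this short read lie around the level of 3 reads (0.0531 to 0.118 RPM), and for both reads the ranges of the methods overlapped in control samples. The long read of bases 42 to 83 lay at 0.605 to 4.96, 1.23 to 9.59, 0.0413 to 3.61 and 0.0927 to 2.22 RPM, with ranges that overlapped between the methods.

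Lengths of the 3′ reads followed the start positions. Reads of 26 nt held 40.7% and 38.6% and reads of 25 nt 32.3% and 32.6% of Ser-GCT 3′ reads in PANDORA-seq control and DCHP samples. The mean length was 27.2 ± 1.35 nt in PANDORA-seq against 22.9 ± 2.92 nt in traditional control samples, which did not pass (adjusted p = 0.0503, exact permutation test), and 28.01 ± 1.26 nt against 22.997 ± 3.20 nt after DCHP (adjusted p = 0.0385, exact permutation test). With reads under 18 nt left out the second difference was 1.17 nt and was not called (adjusted p = 0.497, exact permutation test).

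Internal Ser-GCT reads were few, and 1 library stood apart. They measured 12.8, 13.7, 7.22 and 21.01 RPM in PANDORA-seq control samples, 12.8, 38.0, 8.20, 22.1 and 25.4 RPM in PANDORA-seq DCHP samples and 20.4, 20.7, 57.1, 26.8 and 13.4 RPM in traditional control samples. In traditional DCHP samples they measured 27.6, 219.9, 32.9, 21.3 and 30.8 RPM. Replicate 2 of that group held 150.5 RPM of reads of 43 to 45 nt that began at bases 34 to 37, in or just after the anticodon, where the other 18 libraries had at most 6.72 RPM, and this class was chosen after its length profile was seen. Its longest reads were at the deposited limit of 45 nt.

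PANDORA-seq was called lower for internal Ser-GCT reads in control (log2 −1.02, SE 0.47, edgeR adjusted p = 0.0670) and DCHP samples (log2 −1.64, SE 0.65, edgeR adjusted p = 0.0340) per total reads. Without traditional DCHP replicate 2 the second was −0.40 and not called (edgeR adjusted p = 0.408). The first was lost when any of PANDORA-seq control replicates 1, 2 or 3 or traditional control replicate 3 was left out (log2 from −1.02 to −0.57, edgeR adjusted p from 0.113 to 0.240), and was −0.00 with TMM factors and −0.08 with DESeq2. The DCHP call was also lost with TMM factors (log2 −0.41, edgeR adjusted p = 0.563) and with DESeq2 (log2 −0.22, adjusted p = 0.741). They turned to 1.37 and 0.67 on the log2 scale per hairpin read in control and DCHP samples.

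Mismatches to the reference can come from modified bases, related loci or sequencing errors, and these sources were not separated. Ser-AGA/TGA 5′ reads had fewer mismatches in PANDORA-seq, at 6.58% ± 0.738 against 14.1% ± 0.694 in control samples (SD, n = 4 and 5, adjusted p = 0.0274, exact permutation test) and 7.26% ± 0.926 against 13.2% ± 1.06 after DCHP (SD, n = 5 each, adjusted p = 0.0155, exact permutation test). The control call was lost without the same libraries as for the Ser-GCT shares, with differences of −7.88 to −7.38 percentage points (adjusted p from 0.0503 to 0.0620, exact permutation test). Ser-GCT 5′ reads also had fewer in control samples, at 16.8% ± 2.39 against 24.5% ± 2.79 (SD, n = 4 and 5, adjusted p = 0.0274, exact permutation test), a call lost without the same libraries. The difference was not called after DCHP, at 20.8% ± 3.41 against 24.2% ± 1.02 (SD, n = 5 each, adjusted p = 0.162, exact permutation test). Internal Ser-GCT reads went the other way. They had more mismatches in PANDORA-seq after DCHP, at 59.9% ± 5.81 against 51.1% ± 3.64 (SD, n = 5 each, adjusted p = 0.0385, exact permutation test), though the ranges overlapped. That call was lost with a looser origin rule (adjusted p = 0.0959, exact permutation test) and without any of the 10 libraries but PANDORA-seq DCHP replicate 5 and traditional DCHP replicate 4, with differences of 6.98 to 9.73 percentage points. In control samples internal reads had 64.1% ± 9.66 against 53.4% ± 9.87 (SD, n = 4 and 5, adjusted p = 0.228, exact permutation test). The mean length of internal Ser-GCT reads after DCHP was 27.8 to 33.3 nt in PANDORA-seq. In traditional RNA-seq it was 21.3 to 24.2 nt, apart from 39.5 nt in replicate 2. A longer read has more bases that can mismatch, and none of these mismatch shares was adjusted for length or region.

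Of single changes in Ser-AGA/TGA, G10A was found in 1.35% of PANDORA-seq reads over that base and 3.06% of traditional reads, and C12T in 1.74% and 3.56%.

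Position by position, 23 bases of Ser-AGA/TGA and 66 of Ser-GCT could be tested. In control samples 6 of them differed between the methods, all lower in PANDORA-seq, beside 18% of 345 positions over all tRNA sets. They were base 18 of Ser-AGA/TGA and bases 2, 8, 15, 67 and 75 of Ser-GCT. With any 1 of the 9 control libraries left out, 0 of the 345 positions were called, while 97 to 122 had an unadjusted p under 0.05 in the exact permutation test. With 1 library fewer the smallest p of this test is 0.0179 (3 against 5) or 0.0286 (4 against 4). That is too high for so few positions to pass adjustment, so the loss does not show dependence on single libraries. After DCHP 19 differed beside 24.3% of all positions, of which base 19 of Ser-AGA/TGA and base 58 of Ser-GCT were higher in PANDORA-seq. The 17 lower ones were bases 2, 4, 10 and 13 of Ser-AGA/TGA and bases 2, 20, 22, 42, 54, 63, 65, 66, 67, 68, 70, 71 and 81 of Ser-GCT. Without PANDORA-seq DCHP replicate 1, 3 or 5 these calls also fell to 0 of 345. Among reads of 25 to 45 nt the calls of bases 66, 70, 71 and 81 of Ser-GCT after DCHP were lost (adjusted p = 0.122, 0.151, 0.313 and 0.291, exact permutation test), as was that of base 75 in control samples (adjusted p = 0.254, exact permutation test). With up to 2 mismatches in such reads the calls of bases 54, 70, 71 and 81 after DCHP were lost (adjusted p = 0.180, 0.0928, 0.153 and 0.219, exact permutation test), base 54 going from −2.51 to −0.48 percentage points, and so was that of base 75 in control samples (adjusted p = 0.192, exact permutation test). The serine counts are thus no larger than the share over all tRNAs.

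At the T-loop adenosine itself, base 67 of Ser-GCT, mismatches made up 0.477%, 0.608%, 0.323% and 0.256% of reads in PANDORA-seq control samples and 1.86%, 1.45%, 1.20%, 1.56% and 2.49% in traditional control samples (adjusted p = 0.0442, exact permutation test). After DCHP they made up 0.496%, 0.375%, 0.296%, 0.401% and 0.311% against 1.46%, 0.897%, 3.35%, 1.08% and 1.83% (adjusted p = 0.0326, exact permutation test). All traditional samples were above all PANDORA-seq samples. Among reads of 25 to 45 nt the difference was only −0.40 and −0.19 percentage points and was not called (adjusted p = 0.250 and 0.518, exact permutation test), nor was it with up to 2 mismatches in them (−0.71 and −0.64 percentage points, adjusted p = 0.0555 and 0.219, exact permutation test). A67G was the main change, with 129 of 41430 reads in PANDORA-seq and 181 of 24982 in traditional RNA-seq.

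Base 58 of Ser-GCT, in the T stem, differed often from the reference. G58A was present in 31.8% of PANDORA-seq and 22.5% of traditional reads over it. Per library it ran from 29.7% to 34.2% for any mismatch in PANDORA-seq and from 10.51% to 29.1% in traditional RNA-seq. The difference was called only after DCHP (32.2% ± 1.81 against 18.3% ± 8.22, SD, n = 5 each, adjusted p = 0.0326, exact permutation test), and among reads of 25 to 45 nt it was 5.20 percentage points and not called (adjusted p = 0.231, exact permutation test). With up to 2 mismatches in those reads it was 0.18 percentage points (adjusted p = 0.964, exact permutation test). At base 50, in the variable arm, where C50T was the main change, mismatch shares overlapped between the methods, from 14.4% to 58.7% in PANDORA-seq and from 5.61% to 47.3% in traditional libraries. G6A was present in 11.3% of PANDORA-seq and 15.4% of traditional reads over base 6.

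The anticodon loop was read thinly. Base 32 of Ser-GCT, before the anticodon, had 3727 PANDORA-seq and 3243 traditional reads, of which 3 and 34 carried C32T. The first anticodon base, base 34, was G in 3720 of 3724 and 3104 of 3132 Ser-GCT reads. For the AGA and TGA loci together only 28 PANDORA-seq and 110 traditional reads covered base 34. The traditional reads had A in 15, G in 52 and T in 43, and the PANDORA-seq reads had A in 2, G in 8 and T in 18. Neither AGA nor TGA loci have a G there. The first anticodon adenosine of serine tRNA is known to be edited to inosine, which is read as G, and reads from other loci were not separated from it.

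DCHP exposure moved no serine fragment past the threshold in either method when features with few reads were left out. Without that filter internal reads of n-TSaga9 alone were called in traditional RNA-seq (log2 1.89, edgeR adjusted p = 0.0237), where 47 of 4933 features were called. DCHP replicate 2 lay far above the rest for these reads, as given below. With the filter, none of the 9 serine fragments tested in PANDORA-seq and none of the 10 in traditional RNA-seq was called by edgeR, where 0% of 666 and 0% of 1209 features were called, while 31 and 112 features had an unadjusted p under 0.05, of which 1 and 2 were serine fragments. The serine median was 0.49 on the log2 scale in PANDORA-seq beside −0.02 over all features, and 0.45 in traditional RNA-seq beside 0.25. In PANDORA-seq, internal reads of n-TSaga9 alone and internal reads shared by all loci passed the filter only through DCHP samples. The filter thus favoured higher values among them, and the serine median in PANDORA-seq does not show a rise of serine fragments as a whole. The effect of DCHP differed between the methods for 0 of 10 serine fragments and 0% of 1260 features (edgeR interaction test, 56 features with an unadjusted p under 0.05).

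In traditional RNA-seq the serine total was at least 1551 RPM in each DCHP sample and at most 1530 RPM in each control sample, as given above. Such a separation was seen for 0.993% of the 1209 features, but for none of the 10 serine fragments taken singly. Per 1000 hairpin reads it was gone, with 20.6 to 33.3 after DCHP and 7.85 to 30.3 in controls. Most of the total was Ser-AGA/TGA 5′ reads, where DCHP was 1.39-fold higher (log2 0.48, SE 0.30, edgeR adjusted p = 0.6247), and Ser-GCT 5′ reads, where it was 1.33-fold higher (log2 0.41, SE 0.33, edgeR adjusted p = 0.679). In PANDORA-seq the same fragments had log2 differences of −0.15 (SE 0.32) and 0.14 (SE 0.31), both with an edgeR adjusted p of 0.998.

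Ser-GCT 3′ reads had a log2 difference after DCHP of 0.49 (SE 0.42, edgeR adjusted p = 0.998) in PANDORA-seq and of −0.64 (SE 0.64, edgeR adjusted p = 0.772) in traditional RNA-seq, and the difference between these effects was 1.13 (SE 0.83, edgeR adjusted p = 0.951). Without traditional control replicate 3 the traditional value turned to 0.10 and the difference between the effects was 0.40 (edgeR adjusted p = 0.970 and 0.949). Internal Ser-GCT reads had log2 differences of 0.64 (SE 0.44) and 1.26 (SE 0.66), with edgeR adjusted p of 0.998 and 0.608. The second was 0.02 without traditional DCHP replicate 2, the library with the long reads (edgeR adjusted p = 0.992).

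The smallest unadjusted p-values belonged to internal reads that matched n-TSaga9 alone, a form near the detection limit in PANDORA-seq. They measured 0.0393, 0.151, 0.139 and 0.124 RPM in PANDORA-seq control samples and 0.232, 0.270, 0.252, 0.384 and 0.363 RPM in DCHP samples, and 3 reads correspond to 0.0531 to 0.118 RPM in these libraries. These PANDORA-seq reads passed the filter of at least 10 reads in at least 4 libraries through DCHP samples alone. DCHP samples held 11, 9, 10, 11 and 16 reads, against 1, 4, 6 and 7 in control samples. Higher values after DCHP were thus favoured by the filter, and the PANDORA-seq values that follow are descriptive only. The groups did not overlap, as for 0.601% of the 666 features, nor did they per 1000 hairpin reads, as for 0.751%. The log2 difference was 1.34 (SE 0.45, edgeR adjusted p = 0.749), against 1.89 in traditional RNA-seq (SE 0.69, edgeR adjusted p = 0.525, or 0.0237 without the filter on low counts). In the latter DCHP replicate 2 held 12.2 RPM, far above the others of its group, and without it the log2 difference was 0.94.

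Single sequences gave the same outcome in edgeR. Of the 20000 most abundant sequences in each method, 23 with PANDORA-seq and 47 with traditional RNA-seq were serine tRNA reads, and 0 of them were called by edgeR, as were 0% of all 20000 in each method. At an unadjusted p under 0.05 there were 0 and 10 serine sequences, and 1048 and 1475 of all. DESeq2 called 90 and 133 of all sequences, and whether serine reads were among them is not given here. The read of bases 1 to 23 of Ser-AGA/TGA measured 151, 219, 227, 271 and 311 RPM in traditional control and 368, 272, 330, 451 and 668 RPM in traditional DCHP samples, which overlap. Its log2 difference was 0.83 (SE 0.29, edgeR adjusted p = 0.656), against −0.54 in PANDORA-seq (SE 0.34, edgeR adjusted p = 0.997). The long Ser-GCT read of bases 42 to 83 had a log2 difference of 1.07 in PANDORA-seq (SE 0.65, edgeR adjusted p = 0.997).

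No share, length or mismatch of serine reads differed with exposure either. Of 16 serine measures 0 were called in each method, as were 0% of all 76, and 0 serine measures had an unadjusted p under 0.05 in the exact permutation tests. The 5′ share of Ser-GCT was 13.2% and 12.2% in PANDORA-seq control and DCHP samples and 81.1% and 83.3% in traditional RNA-seq. With 4 against 5 or 5 against 5 libraries the smallest unadjusted p that this test can give was 0.00794, which a single separated measure among 76 would not keep below 0.05 after adjustment.

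Set beside other tRNAs, the 4 serine loci gave more reads than the other 6 nuclear loci of the reference together. The reference held only 10 of the 408 nuclear tRNA loci in RefSeq, so the comparison does not extend to nuclear tRNAs in general. The other 6 nuclear loci of the reference summed to means of 162, 174, 409 and 620.5 RPM in PANDORA-seq control, PANDORA-seq DCHP, traditional control and traditional DCHP samples, where the 4 serine loci had 277, 309, 1357 and 1839 RPM. Their 5′ share was 1.30%, 1.46%, 5.14% and 7.43%, and the serine 5′ share was 58.8%, 51.5%, 91.1% and 92.0%. By group means serine 5′ reads thus stood out against 3′ reads of the others, at 73.9%, 76.2%, 63.6% and 57.3%, and this was described, not tested. It did not hold throughout PANDORA-seq. The serine 5′ share of its DCHP libraries ran from 37.7% to 67.8%, and its Ser-GCT reads were mainly 3′ reads, at 66.7% to 84.6%.

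The mitochondrial serine tRNAs, which lack the long variable arm, had 1.73, 2.41, 97.7 and 151 RPM (mt-Ts1) and 11.2, 17.3, 96.5 and 188 RPM (mt-Ts2) in the same order of groups. Their reads were mainly 5′ as well, with mean shares of 61.5% to 85.6% for mt-Ts1 and 83.6% to 94.4% for mt-Ts2. In PANDORA-seq control samples 1 library had only 0.324 RPM of mt-Ts2, so its share rests on few reads.

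The tRNAs outside the members that had reads in every library of a method were ranked by how closely they followed the serine total. Over the 9 PANDORA-seq libraries n-TRtcg5 (Spearman's rho 0.85), mt-Ts2 (0.60) and n-TRtct4 (0.53) came first. Over the 10 traditional libraries n-TGccc7 (0.90), mt-Tl2 (0.71) and mt-Ti (0.64) did. These values describe libraries that share depth and composition within each method. The order differed between the methods. In PANDORA-seq n-TGccc7 had 0.52, mt-Tl2 0.07 and mt-Ti −0.93, the most negative of all, and in traditional RNA-seq n-TRtcg5 had 0.49, mt-Ts2 0.56 and n-TRtct4 0.42.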

How the data were processed

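Small RNAs of 15 to 50 nt from mouse sperm were sequenced by the authors on 19 libraries (Illumina, single end), with AlkB and T4PNK treatment in PANDORA-seq only. They deposited a raw read count for each distinct sequence of 15 to 45 nt per library, with adapters removed and no normalization, and their processing notes name the build mm10. Control and DCHP samples were told apart by their titles, because the treatment label names DCHP for all 19 samples, controls included. The members and lists were chosen with earlier results of these data known.

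Each sequence was matched here to tRNAs (GRCm38, CCA added) and GENCODE small RNAs with at most 1 mismatch on the sense strand. The tRNAs were the 22 mitochondrial ones and the 10 of 408 nuclear RefSeq loci that lie inside a GENCODE exon. Libraries were scaled to total deposited reads. Fragments and the 20000 most abundant sequences per method were tested with edgeR 4.0.16 (quasi-likelihood, no TMM, at least 10 reads in at least 4 libraries, R 4.3.3), and shares, lengths and mismatches (at least 100 reads per library) with two-sided exact permutation tests in scipy 1.17.1. Benjamini-Hochberg adjustment ran over all features, sequences or tRNA sets tested. Named sequences were the most abundant of each fragment class and those with the smallest p-values. DESeq2 1.42.0, TMM factors, other denominators, filters, matching rules, a replicate block and leaving out each library were tried as alternatives. On simulated counts edgeR recovered 96.5% to 100% of features changed 8-fold, with 3.85% to 8.30% false calls, and smaller changes were not simulated. Within groups every pair of libraries differed by more than sampling noise (smallest chi-square per degree of freedom 117.5 over 36 pairs). Libraries with the same number deviated together between methods (r = 0.139 to 0.461 in 4 control pairs, 0.155 to 0.429 in 5 DCHP pairs), so numbers pair the samples there. The full sequences of the other 3 loci are not reported here.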

Additional observations from a re-analysis of the deposited data

Results flagged for a closer look

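Of 124 groups of 4 or 5 libraries checked for a sample far from the rest, 13 were picked out, where chance gives about 1 in 20. Traditional DCHP replicate 2 accounted for 8. It had 219.9 RPM of internal Ser-GCT reads, with a mean length of 39.5 nt and a share of 32.02% of Ser-GCT reads, and a Ser-GCT 5′ share of 57.7%. Its reads of n-TSaga9 alone were 12.2 RPM (internal) and 1.34 RPM (3′), and its reads of the TGA loci alone were 5.98 RPM (internal) and 1.71 RPM (3′).

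Traditional control replicate 1 had 1205 RPM of Ser-AGA/TGA 5′ reads, against 703 to 774 RPM in the other control libraries, and the shortest Ser-GCT 5′ reads of its group (mean length 21.8 nt). PANDORA-seq control replicate 2 had 2.16 RPM of Ser-AGA/TGA 3′ reads, replicate 3 had a Ser-AGA/TGA internal share of 4.38% and replicate 4 had Ser-GCT 3′ reads with a mean length of 29.3 nt, each the highest of that group. The cause was not tested for any of them.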

How the results depend on the processing

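For the serine fragments tested, which method was higher depended on the denominator, with the exception of Ser-GCT 3′ reads. Their values were higher in PANDORA-seq under each scaling tried (log2 0.50 to 7.86 in control and 1.63 to 8.26 in DCHP samples). Per hairpin read of 20 to 24 nt, PANDORA-seq turned to higher on the log2 scale in DCHP and control samples for internal reads shared by all loci (4.20 and 3.49), Ser-AGA/TGA 3′ (5.03 and 5.18), 5′ (4.13 and 4.82) and internal reads (4.96 and 5.54), n-TSaga9 internal reads (3.08 and 4.07), Ser-GCT 5′ (2.15 and 2.68) and internal reads (5.09 and 6.33), TGA internal reads (3.43 and 4.28) and, in DCHP samples, n-TSaga9 3′ reads (6.10). Per hairpin read it did so for Ser-AGA/TGA 3′ (0.23 and 0.33) and internal reads (0.33 and 0.59), Ser-GCT internal reads (0.67 and 1.37) and n-TSaga9 3′ reads in DCHP samples (1.63). Ser-GCT 5′ reads kept their call there, and Ser-AGA/TGA 5′ reads did not (log2 −0.23 in control and −0.54 in DCHP samples, edgeR adjusted p = 0.684 and 0.115). With reads of 18 to 45 nt, Ser-AGA/TGA internal reads in control samples turned to 0.23, and with a looser origin rule their share in DCHP samples turned to −0.026 percentage points. The ratio of serine totals, PANDORA-seq over traditional, was 1.003 (control) and 0.988 (DCHP) per hairpin read and 32.7 and 22.3 per hairpin read of 20 to 24 nt.

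For exposure in PANDORA-seq, features called numbered 1 with exact matches, 1 per hairpin read of 20 to 24 nt, 14 without a filter on low counts and 3 with a replicate block, and sequences called numbered 90 with DESeq2, 1 with at least 10 reads in every library and 2 per hairpin read. In traditional RNA-seq 47 features were called without the filter, of which n-TSaga9 internal reads were one (edgeR adjusted p = 0.0237), and 133 sequences with DESeq2. Between methods 2069 (DCHP) and 1178 (control) features were called without the filter. Of shares and lengths, 14 and 7 of 22 were called with at least 1000 reads and 30 and 20 of 51 with exact matches in DCHP and control samples, beside 49 and 31 of 76. Of positions in DCHP samples, 54 of 89 were called with at least 1000 reads, beside 84 of 345.

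Pairing by replicate number left 0 shares and 0 positions called in either contrast, because the smallest p of that design was 0.125 or 0.0625, and changed no edgeR call of a serine fragment. For exposure the numbers did not pair the samples (1 of 4 and 1 of 5 correlations over 0.1). Leaving out each library in turn gave 0 to 3 sequences in PANDORA-seq and 0 to 0 in traditional RNA-seq for exposure, and 0 to 1 (without PANDORA-seq DCHP replicate 5) and 0 to 0 features. It gave 0 to 1 for the interaction (without traditional control replicate 3). Between methods it gave 658 to 771 (DCHP) and 590 to 658 (control) features, 37 to 50 and 0 to 32 shares and lengths, and 0 to 89 and 0 to 0 positions. No share or position was called for exposure (0 to 0). Control shares fell to 0 without PANDORA-seq control replicate 2 or 4 or any traditional control library, and DCHP positions without PANDORA-seq DCHP replicate 1, 3 or 5. With 1 control library fewer the smallest exact p rises from 0.00794 to 0.0179 or 0.0286, so the control losses do not single out a library. Serine totals ranged over ratios of 0.977 to 1.23 and 1.25 to 1.41 for exposure in PANDORA-seq and traditional RNA-seq, and 0.147 to 0.184 (DCHP) and 0.185 to 0.223 (control) between methods.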
